A study of Mus musculus with 100 samples.

Results

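The genes described here are the expressed genes of distal mouse chromosome 11, followed in M KSR3, a male line of induced pluripotent stem cells whose RNA from this region departed from that of its 3 companion lines. A gene was a member when it lay on chromosome 11, started past the first 60 Mb and had a deposited log2 value above 2 in all 12 libraries of the 4 lines. This gave 534 members out of 25965 genes, drawn from 1459 chromosome 11 genes past that start. Of the other 925, which were at or under the level in at least 1 library, 256 had no reads in any of the 12 libraries. The region was chosen by the level and the maternal share of its genes in M KSR3 against the other lines, so every comparison of M KSR3 with those lines is a description, and nothing is read from counts of calls on it. A gain along the whole of this region was only partly what the data held. Of the 534 members, 437 lay in a continuous run with extra maternal RNA, 25 lay in a run that had lost nearly all its maternal RNA, and 65 at the far end of the chromosome had the usual level and allelic balance. The remaining 7 lay beside the run without maternal RNA, 3 before it and 4 after it.

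RNA-seq was done on 18 libraries, 3 from each of 6 groups. The KSR-iPSCs, female in F KSR2 and F KSR4 and male in M KSR3 and its companion M KSR5, were made from fibroblasts of F1 hybrid embryos. Their mother was an i4F-BL6 mouse, which is on the C57BL/6J background and carries a doxycycline-inducible Oct4, Sox2, Klf4 and c-Myc cassette with the rtTA activator in Rosa26, and their father was a CAST mouse. Each line is 1 colony, picked after doxycycline treatment in Knockout Serum Replacement medium, so that a difference between lines is a difference between single clones. The female and male lines came from single embryos of 1 progeny, and sex cannot be told apart from embryo in any comparison of them. Female MEFs are the parental fibroblasts of the female lines, and TX 2i ESCs are a female embryonic stem cell line from a cross of the same strains. These ESCs were cultured in medium with foetal bovine serum and inhibitors of MEK and GSK3. Serum, inhibitors and origin of the cells therefore cannot be told apart in comparisons of TX 2i ESCs with the KSR-iPSCs. Triplicates are called biological in the paper, which does not say how they were separated within a line, so p-values measure only the spread between these libraries.

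Each library held 13183036 to 17921280 reads on genes (median 15722711), as recovered from the steps of the log2 RPM values, where RPM is reads scaled to a fixed library total. A strain-specific SNP placed 17.7% to 19.9% of these reads on the maternal or the paternal genome. The summed level of 12 pluripotent cell markers was 4780 to 5764 RPM in M KSR3, 5107 to 7435 RPM in the other lines and 1.72 to 2.57 RPM in MEFs. The summed level of 16 fibroblast markers was 96.3 to 150 RPM in M KSR3, 82.0 to 410 RPM in the other lines and 31309 to 44337 RPM in MEFs. Markers of early differentiation summed to 143 to 166 RPM in M KSR3 and to 71.2 to 288 RPM in the other lines. M KSR3 was thus within the range of its companions for fibroblast and differentiation markers, and its lowest pluripotency sum lay under theirs. The part of marker levels in the differences below was not tested.

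An autosomal gene has a maternal and a paternal copy, and in an F1 hybrid the strain SNPs show which copy an RNA came from. A further maternal copy of a gene expressed equally from all copies brings its RNA to 1.5-fold of the usual level and the maternal share from 50% to 66.7%. A lost maternal copy leaves the paternal RNA alone. Gain of distal chromosome 11 is a recurrent change in cultured mouse pluripotent cells, and the region shares gene content with human chromosome 17, parts of which are recurrently gained in human pluripotent cells. The genes around Rai1 correspond to the interval of that chromosome that is deleted in Smith-Magenis syndrome and duplicated in Potocki-Lupski syndrome. In bulk RNA, fewer cells with a transcript and less of it in each cell cannot be told apart. DNA copy number was not measured here, and members called gained below are those of the run with more maternal RNA. The paper counted metaphase chromosomes in several lines, M KSR3 among them, and reports a normal karyotype.

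In the summed M KSR3 reads, the maternal share changed 8 times along chromosome 11, where each of the 9 libraries of the other lines gave 1 unbroken segment over the same 644 genes. The same search gave 3 segments in each TX 2i ESC library over 632 genes and 5 to 7 in the MEF libraries over 592 genes, so that it also broke in libraries outside M KSR3. The segments were found by a search chosen after the values had been seen, and they describe these libraries. The promoters at both edges of the stretch without maternal RNA are shown because the break in allelic balance fell between neighbouring genes there, one with both alleles in its RNA and one with the paternal allele alone. At the proximal edge these were Tom1l2 and Atpaf2, an assembly factor of the ATP synthase. In M KSR3, Tom1l2 had 33.5% maternal reads of 161 (50.0%, 24.6% and 27.3% by library), against 41.1% in the other lines. Atpaf2 had 0 maternal reads of 145. At the distal edge they were Ncor1, a corepressor of nuclear receptors, with 6 maternal reads of 648, and Pigl, an enzyme of GPI anchor synthesis, with 43.7% maternal reads. Each promoter runs from 250 bases before to 50 bases after the RefSeq start on GRCm38.p6 and is written 5′ to 3′ on the gene's own strand. Capitals mark a CCAAT box (CCAAT or its reverse ATTGG) or a GC box (GGGCGG or its reverse CCGCCC). Where matches adjoin or overlap, the capitals run on.
Tom1l2, chr11:60352856-60353155, minus strand: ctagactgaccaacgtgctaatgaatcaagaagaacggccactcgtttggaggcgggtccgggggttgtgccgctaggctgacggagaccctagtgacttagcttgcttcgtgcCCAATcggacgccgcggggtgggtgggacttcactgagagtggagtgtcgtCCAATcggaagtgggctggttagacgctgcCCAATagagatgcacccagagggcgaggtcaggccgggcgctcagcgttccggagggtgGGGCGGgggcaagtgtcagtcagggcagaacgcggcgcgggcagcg
Atpaf2, chr11:60416985-60417284, minus strand: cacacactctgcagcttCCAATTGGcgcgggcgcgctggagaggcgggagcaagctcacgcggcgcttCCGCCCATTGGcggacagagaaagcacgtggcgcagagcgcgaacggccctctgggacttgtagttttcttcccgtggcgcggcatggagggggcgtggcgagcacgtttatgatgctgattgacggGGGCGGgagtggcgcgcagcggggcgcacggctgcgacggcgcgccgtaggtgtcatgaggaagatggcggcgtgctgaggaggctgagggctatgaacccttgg
Ncor1, chr11:62457283-62457582, minus strand: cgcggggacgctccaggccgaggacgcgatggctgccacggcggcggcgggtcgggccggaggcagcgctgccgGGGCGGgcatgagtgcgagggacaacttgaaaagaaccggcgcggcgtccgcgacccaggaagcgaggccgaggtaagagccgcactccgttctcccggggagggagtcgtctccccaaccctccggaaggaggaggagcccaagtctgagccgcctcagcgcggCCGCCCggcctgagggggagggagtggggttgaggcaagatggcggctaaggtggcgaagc
Pigl, chr11:62458191-62458490, plus strand: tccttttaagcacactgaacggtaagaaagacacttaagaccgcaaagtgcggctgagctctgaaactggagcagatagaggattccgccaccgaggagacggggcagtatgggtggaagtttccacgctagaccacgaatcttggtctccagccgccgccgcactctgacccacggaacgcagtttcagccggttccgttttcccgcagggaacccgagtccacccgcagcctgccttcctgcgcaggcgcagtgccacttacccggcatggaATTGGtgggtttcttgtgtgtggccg
The CCAAT box was matched 3 times in Tom1l2, 3 times in Atpaf2, 0 times in Ncor1 and 1 time in Pigl, and 37.4% of all 32851 RefSeq promoter windows held at least 1 match. The GC box was matched 1 time in Tom1l2, 2 times in Atpaf2, 2 times in Ncor1 and 0 times in Pigl, against 35.7% of all windows. None of the 4 held TATAAA or its reverse TTTATA, which 13.6% of windows did. All 4 were rich in CG dinucleotides, with 26, 35, 36 and 22 in the same order, where the median window held 7. The Ncor1 and Pigl windows lie on opposite strands and do not touch, since the first ends at 62457582 and the second starts at 62458191. The Pigl window lies within the span of Ncor1, which ends at 62458541.

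Over all 534 members, the level in M KSR3 was 0.53 above the other lines on the log2 scale (medians of 0.51, 0.51 and 0.52 in the 3 libraries). This difference is the log2 RPM in M KSR3 less the mean of the 3 other line means, set relative to the median of the same difference over 5038 genes of autosomes with balanced alleles. The maternal share of the 458 members with at least 20 allelic reads in each of the 12 libraries was 64.7% ± 0.05 (SD, n = 3) in M KSR3, and 49.9% to 51.5% in the 9 other libraries. These sums combined stretches that went in opposite directions, which the map of levels and shares along the chromosome separates.

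**Figure D1:**
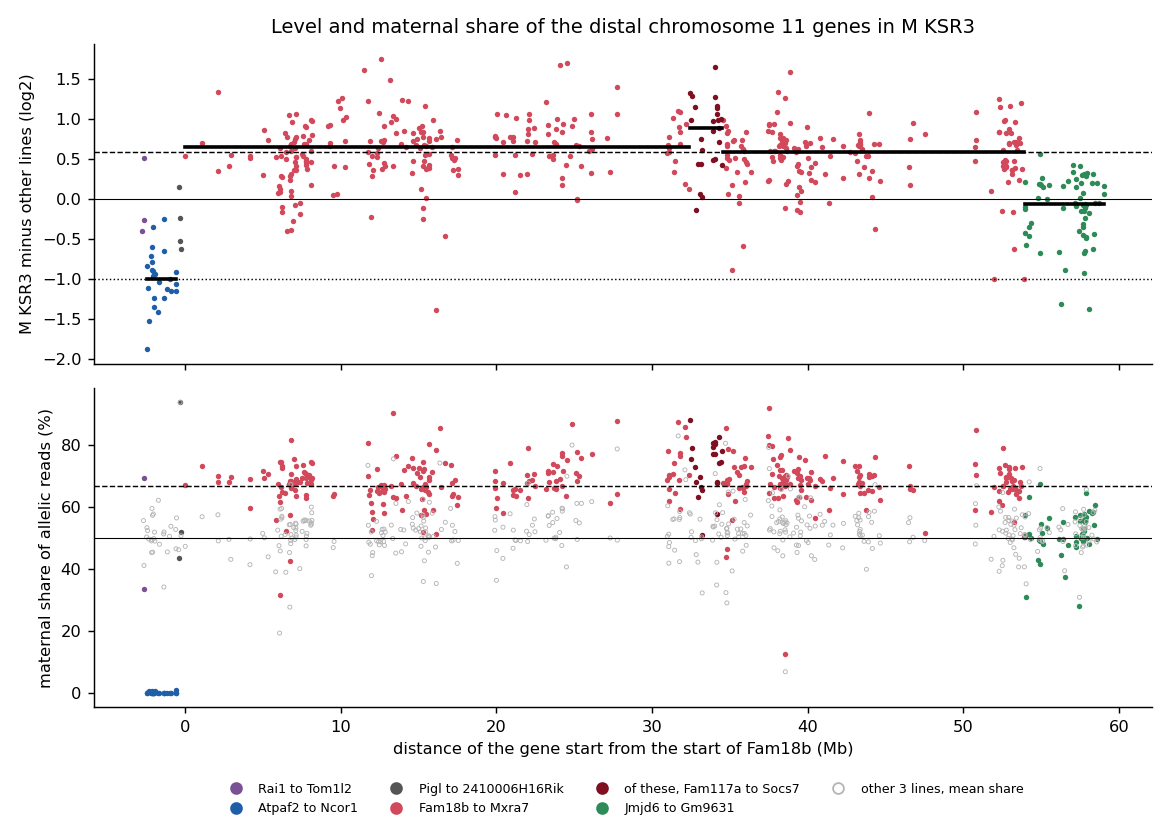
Difference in level of M KSR3 from the other 3 lines (upper panel, log2) and maternal share of allelic reads in percent (lower panel) for each member against the distance of its start from that of Fam18b in Mb, coloured by stretch, with black bars at medians, open circles for the mean share of the other lines, dashed lines at 1.5-fold and 66.7% and a dotted line at 1 copy. The 25 members from Atpaf2 to Ncor1 lay at a median of -0.99 with shares near 0%, the 437 from Fam18b to Mxra7 at a median of 0.63, and the last 65 at a median of -0.06.

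The proximal part of chromosome 11, from Sfi1 to Trim11, had a median difference of -0.02 over 206 expressed genes and a maternal share of 52.0%. A first run of 9 genes from Guk1 to Flcn (59183875 to 59810016), just outside the rule, had a median difference of 0.52 and a maternal share of 65.9% ± 1.23 (SD, n = 3), against 48.9% to 53.2% in the other libraries. The next genes alternated. Cops3, a subunit of the COP9 signalosome starting at 59817795, had 36 maternal reads of 636 in M KSR3 and a difference of -0.75. Med9, a Mediator subunit, had a difference of 0.87 and a maternal share of 70.2%, where the other lines had 57.5%. These are the nearest genes outside the rule's start, together with Flcn, the folliculin tumour suppressor, which had a difference of 0.43 and a share of 70.8%.

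The first members past the start were equally uneven. Rai1, a chromatin-binding regulator at 60105013 to 60199197, had log2 RPM of 4.01, 3.40 and 3.43 in M KSR3 and 2.82 to 4.74 (median 3.97) in the other libraries, with 76 maternal reads of 111. Srebf1, a transcription factor of lipid synthesis at 60199089 to 60222581, had 6.76, 6.32 and 6.35 in M KSR3 and 5.62 to 6.20 (median 5.90) elsewhere, with 69.3% maternal reads against 55.6%. Tom1l2, an endosomal trafficking adaptor at 60226714 to 60352905, had 3.27, 3.71 and 3.50 in M KSR3 and 3.02 to 4.36 (median 3.73) elsewhere. Of these 3 members, the M KSR3 libraries lay apart from the others in Srebf1, above all 9, and overlapped them in Rai1 and Tom1l2. At the level threshold, the members nearest the limit were 2410003L11Rik, Gm20708 and Rundc1, each with a lowest log2 value of 2.01. The nearest genes left out were A730011L01Rik at 1.95, Polg2 at 1.97 and Leprel4 at 2.00, the last just under the limit before rounding.

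From Atpaf2 to Ncor1 (60400626 to 62458541, 2.06 Mb), maternal RNA was nearly absent in M KSR3. The 25 members of this stretch had 7 maternal reads of 2621 in the first M KSR3 library, 3 of 2897 in the second and 5 of 2673 in the third. On average 0.19% ± 0.08 of their allelic reads (SD, n = 3) were maternal, against 49.9% to 53.0% in the 9 other KSR-iPSC libraries, 49.9% in TX 2i ESCs and 50.4% in MEFs. In 19 of the 25 genes no maternal read was found in any M KSR3 library. Counting error alone gives the first library's share of 0.27% a Wilson 95% interval of 0.13% to 0.55%, and reads without molecular identifiers are not independent molecules.

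The level of these genes was close to that of 1 copy. Their median difference was -0.99 (0.50-fold), with library medians of -0.94, -0.92 and -1.06, and the middle of the distribution ran from -1.15 to -0.84. All 25 were lower in M KSR3 on average. In 17 of them (68.0%) the 3 M KSR3 libraries lay below all 9 others, against 2.86% of the 9172 genes past the same level, a count read against the rule's own contrast. Split by allele, the median difference was -7.21 for maternal reads and -0.01 for paternal reads, so that the paternal RNA stood where it did in the other lines. A small value was added to each allelic count before the log2. The maternal figure therefore depends on that value and on depth, and is no measured fold. Genes of the stretch too low to be members had the same pattern, with 0 maternal reads of 211 in M KSR3 over 15 genes, which allows a share of up to 1.42%, and 58.1%, 57.8% and 49.5% maternal reads in F KSR2, F KSR4 and M KSR5.

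Several of the 25 encode regulators of chromatin, RNA and signalling. 4933439F18Rik at 60417145 to 60450927 had log2 RPM of 4.15, 4.07 and 4.13 in M KSR3 and 5.49 to 6.43 (median 5.92) in the other libraries, a difference of -1.88 ± 0.06 (SD, n = 3), and 0 maternal reads of 113. Alkbh5, a demethylase of RNA methyladenosine at 60536381 to 60558512, had 5.49, 5.25 and 5.44 in M KSR3 and 6.24 to 7.32 (median 6.91) elsewhere, a difference of -1.52 ± 0.14, with 3 maternal reads of 485. Usp22, the deubiquitinase of the SAGA complex at 61151785 to 61175055, had 5.86, 5.53 and 5.49 against 6.49 to 7.49 (median 7.02). All 3 differences lay below -1, the 1-copy level of a gene with equal alleles. In each gene the M KSR3 libraries were apart from all others.

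Usp22 differed by -1.41 ± 0.23, and none of its 815 allelic reads in M KSR3 was maternal, where the other lines had 62.2%. Its paternal reads differed by -0.10 only, whereas the paternal reads of Alkbh5 and 4933439F18Rik differed by -0.51 and -0.79. Ncor1 at 62316426 to 62458541 had 6.93, 6.71 and 6.62 in M KSR3 and 7.41 to 8.39 (median 7.81) elsewhere, a difference of -1.15 ± 0.18. The lowered genes also included Gm16515 at -1.35, Epn2, an endocytic adaptor, at -1.24 and Tmem11, a mitochondrial membrane protein, at -1.24, with 0 maternal reads in each.

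The smallest differences in the stretch were those of B9d1, a ciliary transition zone protein, at -0.24 and of Shmt1, the cytosolic serine hydroxymethyltransferase at 60788104 to 60811718, at -0.35. Shmt1 had log2 RPM of 6.71, 6.90 and 6.81 in M KSR3 and 6.36 to 7.34 (median 7.16) in the other libraries, which overlap. Only 1 of its 1166 allelic reads in M KSR3 was maternal, and its paternal reads were higher by 0.40 than in the other lines. Top3a, a topoisomerase with 1 maternal read of 175, and Map2k3, a stress kinase with 2 of 319, had differences of -0.78 and -0.94. The kinase Mapk7 had a difference of -0.65 and the polarity gene Llgl1 of -0.71.

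**Figure D2:**
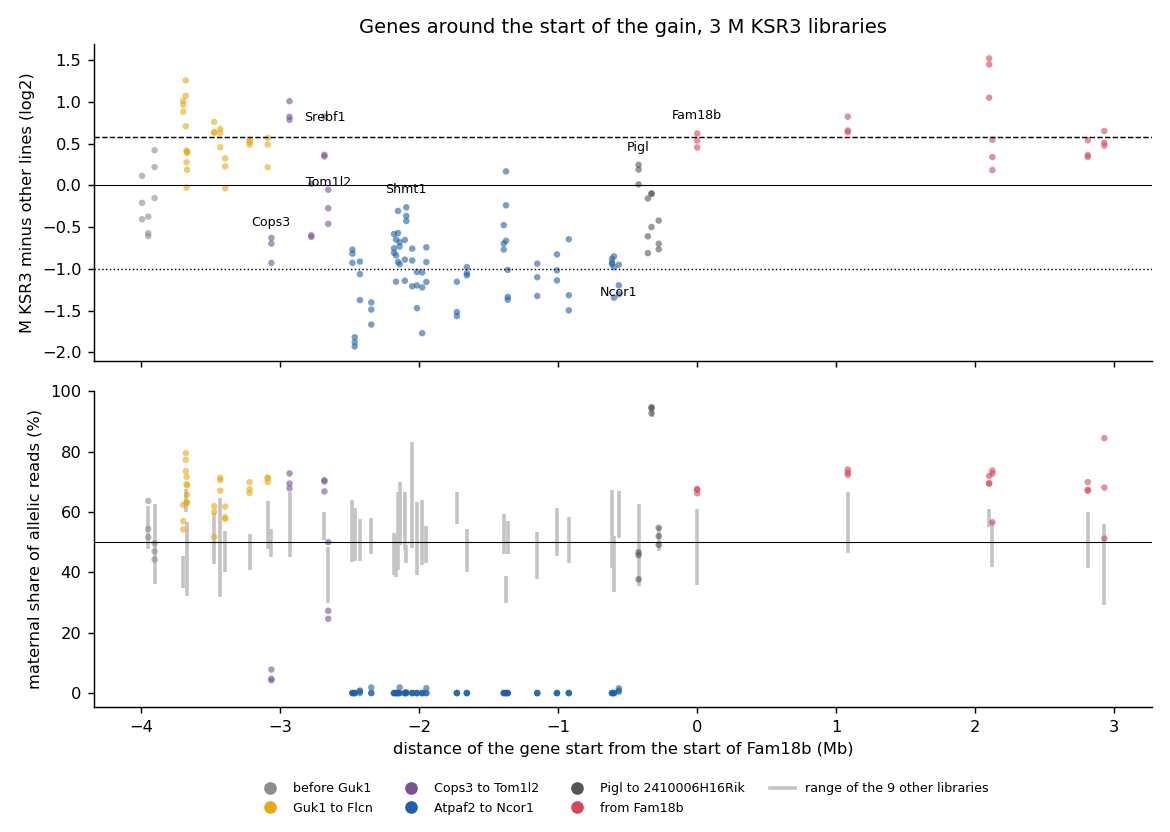
Genes around the start of the gain against the distance from the start of Fam18b in Mb, with the difference in level of each M KSR3 library (upper panel, log2) and its maternal share in percent (lower panel, grey bars for the range of the 9 other libraries). The genes from Atpaf2 to Ncor1 scatter around a level of -1 with shares at or near 0%, and Fam18b and the genes after it lie above 0.

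Between Ncor1 and the gain lay 4 members with both alleles in their RNA, at 62458285 to 62604807, with a median difference of -0.38. Pigl had log2 RPM of 5.48, 5.69 and 5.76 in M KSR3 and 4.18 to 6.14 (median 5.51) in the other libraries, with 43.7% maternal reads against 46.2%. Ubb, a polyubiquitin gene, differed by -0.23 and had 93.8% maternal reads in M KSR3 and in the other lines. Reads of such repeated ubiquitin units can be shared with other ubiquitin genes, and this value is uncertain. 2410006H16Rik differed by -0.63 with 51.8% maternal reads against 50.7%, and Cenpv, a centromere protein, by -0.53 with 4 maternal reads of 8. In all 4 genes the M KSR3 libraries overlapped the others in level, and none was reduced to 1 allele. The 8 allelic reads of Cenpv are too few to place its share. Genes of this stretch too low to be members had 63.5% maternal reads of 510 in M KSR3 over 9 genes. F KSR2, F KSR4 and M KSR5 had 58.3%, 47.4% and 57.4%, so the allelic balance of the stretch was not settled.

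The boundary with the rest of chromosome 11 was located by a single change point over all 751 expressed genes of the chromosome. In each of the 3 M KSR3 libraries it fell between 2410006H16Rik, which ends at 62604807, and Fam18b, which starts at 62879455. Mean differences were -0.14, -0.16 and -0.15 before it and 0.50, 0.49 and 0.50 after it. A single change point on the maternal share of 644 genes fell between Pigl and Ubb (62551171) in all 3 libraries, with means of 46.1% to 46.2% before and 66.3% to 66.5% after. The 2 readouts differed by 2 genes, Ubb and 2410006H16Rik, of which Ubb had a high maternal share in every line.

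The 3 genes after the change point in level were all gained. Fam18b, at 62879455 to 62916780, had log2 RPM of 4.81, 5.01 and 4.94 in M KSR3 and 3.97 to 4.66 (median 4.40) elsewhere, and 67.1% maternal reads against 47.3%. Cox10, an enzyme of haem synthesis at 63962627 to 64079468, had 5.52, 5.39 and 5.37 in M KSR3 and 4.35 to 4.91 (median 4.73) elsewhere, with 73.2% maternal reads against 56.9%. Elac2, a transfer RNA processing enzyme at 64979038 to 65002069, had 7.20, 7.70 and 7.64 against 4.99 to 6.77 (median 6.20), and a share of 70.1% against 57.5%. In each of them the M KSR3 libraries were above all 9 others.

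From Fam18b to Mxra7 (62879455 to 116828046, 53.9 Mb) the 437 members (81.8% of all) had more RNA in M KSR3, mostly from the maternal allele. Their median difference was 0.63, or 1.55-fold, with library medians of 0.61, 0.62 and 0.61 and a middle range of 0.39 to 0.83. The difference was positive in 407 of them. In 215 (49.2%) the 3 M KSR3 libraries lay above all 9 others, against 8.52% of the genes past the level and 3.75% of those on the balanced autosomes, and in 0 they lay below all 9. By windows of 5 Mb the median ran from 0.52 to 0.77, and by level it was 0.69 in the lowest, 0.66 in the middle and 0.56 in the highest tercile of members. Reads without a SNP, which the allelic counts do not use, gave a median of 0.64.

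**Figure D3:**
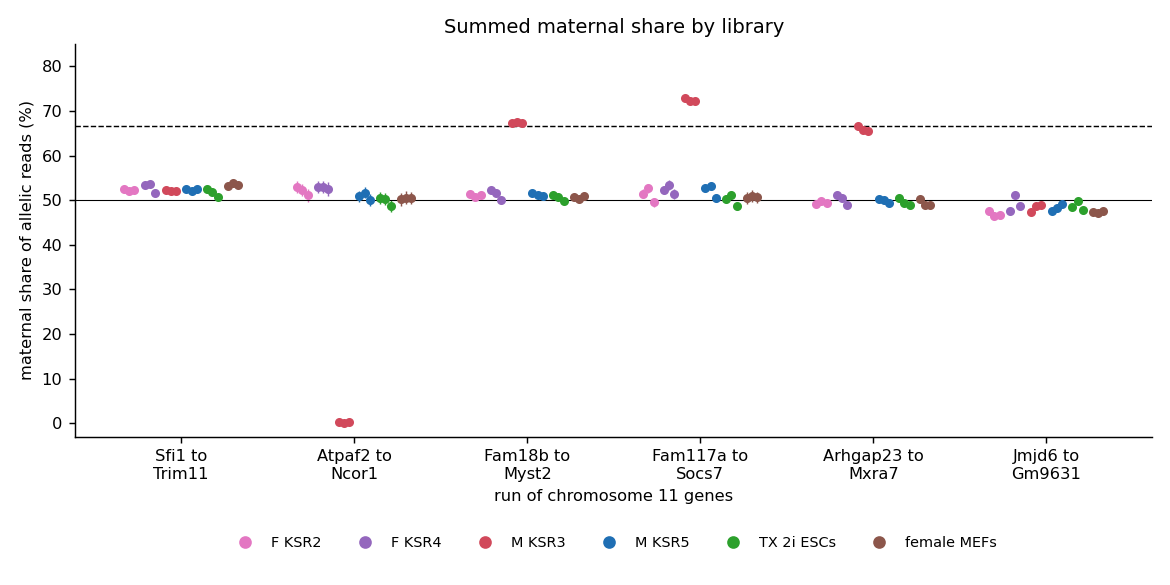
Maternal share of summed allelic reads in percent (vertical axis) for 6 runs of chromosome 11 genes (horizontal axis), with 1 point for each of the 18 libraries, coloured by group, bars for the Wilson 95% interval, a solid line at 50% and a dashed line at 66.7%. The 3 M KSR3 points lie at 0.10% to 0.27% from Atpaf2 to Ncor1, above all others in the 3 gained runs, and among the others before Guk1 and from Jmjd6 on.

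The maternal share of the 375 gained members with enough allelic reads was 67.4%, 67.1% and 67.0% in the 3 M KSR3 libraries, a mean of 67.2% ± 0.24 (SD, n = 3). It was 49.6% to 51.8% (median 50.4%) in the 9 other KSR-iPSC libraries, 50.1% in TX 2i ESCs and 50.0% in MEFs. Applied to the summed share of the other lines (50.6%), 1 further maternal copy predicts 67.2%. Applied gene by gene, it predicted a median share of 68.9%, where the median observed was 68.3%. The median difference was 1.00 for maternal reads and 0.01 for paternal reads. All 375 genes had a higher maternal share in M KSR3 than in the other lines, and in 283 the 3 libraries lay above all 9 others, against 9.44% of the 7542 genes with enough reads.

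Gene by gene, the observed share departed from the predicted one by -0.24 points on average with an SD of 3.69 points, and 367 of the 375 lay within 10 points of it. Genes whose alleles were unequal in every line moved with them. Rpl27, a ribosomal protein, had 6.84% maternal reads in the other lines and 12.5% in M KSR3, with 12.8% predicted. Arhgef15, a guanine nucleotide exchange factor, had 19.3% and 31.6%, with 32.4% predicted. Jup, the junction protein plakoglobin, had 79.2% and 91.9%, with 88.4% predicted, and Cox11, an assembly factor of cytochrome oxidase, 78.7% and 87.8%, with 88.1% predicted.

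**Figure D4:**
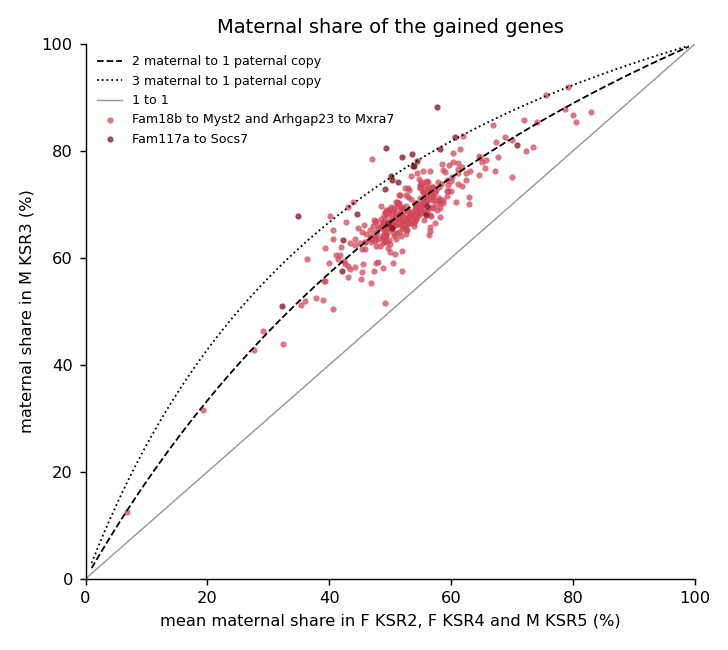
Maternal share in M KSR3 (vertical axis, percent) against the mean share in the other 3 lines (horizontal axis, percent) for the 375 gained members with at least 20 allelic reads in each KSR-iPSC library, with lines for 1, 2 and 3 maternal copies to 1 paternal copy. The members follow the line of 2 copies across the range of shares, and most of those from Fam117a to Socs7 (dark points) lie above it.

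Inside the gain, a stretch of 25 members from Fam117a to Socs7 (95337018 to 97398542, 2.06 Mb) stood higher. Its median difference was 0.90 (1.86-fold), where the 240 members before it had 0.65 (1.57-fold) and the 172 after it 0.59 (1.51-fold). Its maternal share was 72.8%, 72.2% and 72.3% in the M KSR3 libraries, where the summed share of the other lines predicted 68.4% for 1 further maternal copy and 76.4% for 2. The stretch was itself uneven, and 15 of its 23 members with at least 20 allelic reads in each library had a share nearer to the prediction for 3 maternal copies to 1 paternal copy. The members were divided into 5 blocks after their values had been seen, so that differences between blocks are descriptions, and their predictions too come from summed shares. In TX 2i ESC libraries the segment search also broke at 97415533 or 97362551. In MEF libraries its breaks included 94663851 or 94991035 and 95274259 or 95384692. These lie near the edges of the stretch, so a break there was not particular to M KSR3.

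The block from Fam117a to Phb, which holds Spop, a substrate adaptor of a ubiquitin ligase, and Phb, prohibitin, had a median difference of 1.22 over 4 genes and a share of 74.0% in all 3 libraries, with 66.4% predicted for 1 further copy and 74.8% for 2. The block from Zfp652 to Calcoco2 had a median of 0.43 over 7 genes and shares of 67.9%, 67.7% and 67.2%, nearer to the 68.4% of 1 further copy. The block from Snx11 to Scrn2 had a median of 0.98 over 7 genes and shares of 78.3%, 78.1% and 78.3%, nearer to the 78.4% of 2 further copies.

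Mrpl10, Osbpl7 and Tbkbp1 had a median difference of 1.14 but shares of only 64.3%, 56.9% and 60.5%, under the 62.5% of 1 further copy in 2 of the libraries. From Kpnb1 to Socs7 the median over 4 genes was 0.81 and the shares were 75.6%, 75.4% and 75.9%, nearer to the 77.0% of 2 further copies. Kpnb1, the nuclear import receptor importin beta at 97159714 to 97187881, had log2 RPM of 10.74, 10.52 and 10.47 in M KSR3 and 9.05 to 10.14 (median 9.66) in the other libraries, with 74.3% maternal reads against 51.3%. Igf2bp1, a binding protein of fetal messenger RNAs at 95957163 to 96005940, had 9.09, 8.97 and 8.92 in M KSR3 and 8.11 to 9.33 (median 9.08) elsewhere, with no separation in level. Its maternal share was nonetheless 69.7% against 56.1%, with a difference of -0.52 in paternal reads.

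The far end of the chromosome was not gained. From Jmjd6 to Gm9631 (116837432 to 121956727, 5.12 Mb) 65 members had a median difference of -0.06, with library medians of -0.14, -0.01 and -0.03. Maternal reads made up 48.3% ± 0.85 (SD, n = 3) of the allelic reads in M KSR3 and 46.5% to 51.1% in the 9 other libraries. The M KSR3 libraries lay above all 9 others in 0 of the 65 genes, against 8.52% of the genes past the level, and below all 9 in 4 (6.15%), against 2.86%. Srsf2, a splicing factor at 116849901 to 116853094, had log2 RPM of 9.35, 9.35 and 9.43 in M KSR3 and 8.80 to 9.79 (median 9.51) elsewhere, with 51.1% maternal reads against 50.8%. Actg1, a cytoplasmic actin with processed copies elsewhere in the genome that could share its reads, had 10.11, 9.83 and 9.78 against 9.61 to 10.65 (median 10.34), and a share of 28.0% against 30.9%.

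The edge of this end was narrow. 1810032O08Rik, at 116671660 to 116675799, had 72.8% maternal reads in M KSR3 against 57.5% in the other lines, and Jmjd6, a nuclear dioxygenase at 116837432 to 116843449, had 50.4% against 51.1%. Mxra7, which lies between them, had shares of 42.0%, 57.1% and 57.1% over 113 reads in all and a difference of -1.0, and its side of the edge was not settled. Without the second or the third M KSR3 library, the edge fell before Mxra7, at 116803062.

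Members off the 1.5-fold dosage were named by a fixed rule. A member was above it when its difference exceeded 1.17, the log2 of 1.5-fold applied 2 times, and all 3 M KSR3 libraries lay above all 9 others. A member was below it when its difference was under 0 and all 3 lay below the median of the 9. There were 20 members above, all in the gain, against 0.763% of the 9172 genes past the level. There were 59 below, against 28.7% of those genes. Of the 59, 24 lay in the stretch without maternal RNA and 23 at the distal end. Another 8 lay in the gain, 3 between Ncor1 and the gain and 1 before Atpaf2.

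Of the 8 largest above the dosage, 7 are described, with differences of 1.41 to 1.76. Wdr81, an endosomal protein at 75440944 to 75454717, had log2 RPM of 4.78, 5.61 and 5.32 in M KSR3 and 2.44 to 3.79 (median 3.55) in the other libraries, a difference of 1.76 ± 0.40 (SD, n = 3) or 3.38-fold. Tex14, a germ cell bridge protein at 87405065 to 87555823, had 6.27, 5.67 and 5.88 against 3.04 to 4.84 (median 4.51), a difference of 1.70. Ypel2, a yippee-like gene at 86936425 to 86993707, had 4.75, 5.45 and 5.36 against 2.62 to 4.45 (median 3.66), a difference of 1.68. Both alleles were higher in each of these, with paternal reads up by 1.11, 1.46 and 0.95.

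Rap1gap2, an activating protein for the Rap1 GTPase at 74383356 to 74590186, had log2 RPM of 5.05, 5.08 and 4.77 in M KSR3 and 2.18 to 4.42 (median 3.42) in the other libraries, a difference of 1.61. Vps53, a tethering subunit of the Golgi, and Tom1l1, an endosomal adaptor, differed by 1.49 and 1.41. The paternal reads of these 3 genes were higher by 0.87 to 1.05, so that the excess over the dosage was carried by both alleles.

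Etv4, an ETS transcription factor downstream of fibroblast growth factor signalling at 101769742 to 101785371, had log2 RPM of 8.12, 8.20 and 8.09 in M KSR3 and 5.35 to 7.56 (median 6.58) in the other libraries, a difference of 1.59 ± 0.06 (SD, n = 3) or 3.01-fold. Its maternal share was 78.4% against 65.8%, with 79.4% predicted for 1 further maternal copy, and its paternal reads were higher by 1.03. The 9 other libraries were themselves widely spread for this gene, with 7.30, 7.56 and 7.14 in M KSR5 and 5.35 to 6.69 in F KSR2 and F KSR4. The 3.01-fold is against the mean of these lines, of which the male line M KSR5 was nearest to M KSR3.

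**Figure D5:**
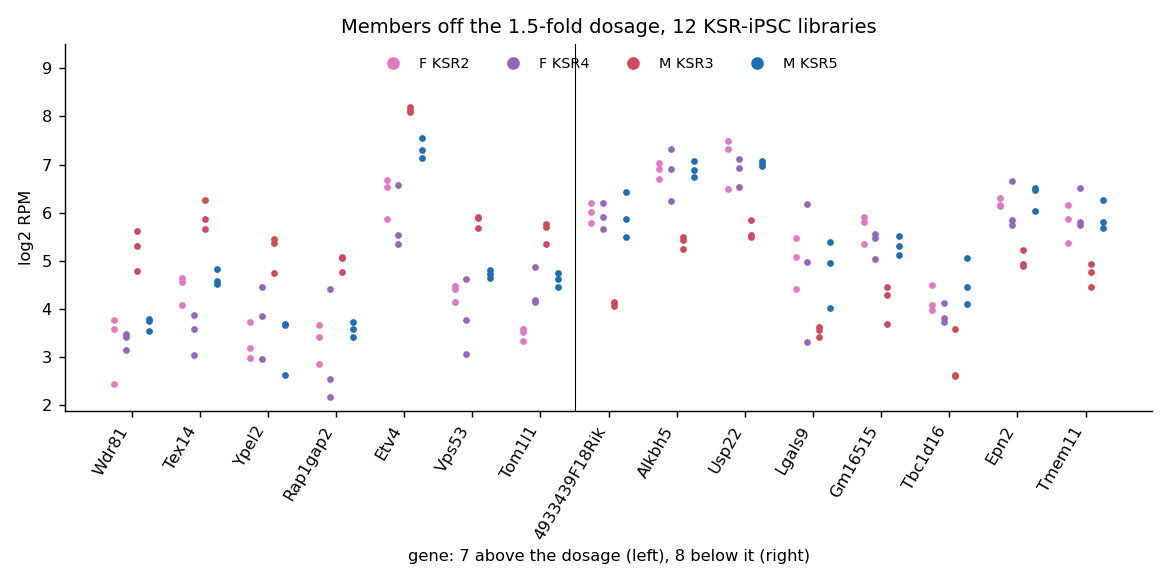
Log2 RPM (vertical axis) in each of the 12 KSR-iPSC libraries for 7 of the 8 members farthest above and the 8 farthest below the 1.5-fold dosage, with 1 point per library coloured by line. On the left the M KSR3 points lie over all others, and on the right they lie under all others except in Lgals9, where 3.42 to 3.62 falls within the 3.32 to 6.19 of the other lines.

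The 8 gained members below the dosage were Sox15, Lgals9, Stac2, Thra, Pitpnc1, Gprc5c, Trim47 and Mxra7, with differences of -0.38 to -1.38. Mxra7 was counted with the gain by the main segments, although its side of the edge was not settled. Lgals9, the galectin gene at 78962974 to 78984946, had log2 RPM of 3.42, 3.55 and 3.62 in M KSR3 and 3.32 to 6.19 (median 4.97) in the other libraries, a difference of -1.38 ± 0.08 (SD, n = 3). Its maternal share was 78.5% over 200 reads, against 47.1% in the other lines and 64.0% predicted. Its paternal reads differed by -2.52 and its maternal reads by -0.49. Gprc5c, an orphan receptor, had 3.20, 2.92 and 2.85 against 3.05 to 5.30 (median 3.73) and a share of 66.4%, with 67.1% predicted. For these genes the M KSR3 libraries overlapped the others, which varied between lines.

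Only 3 gained members had a maternal share over 10 points above the prediction in all 3 libraries. Besides Lgals9 these were Fam117a, with 86.3%, 93.0% and 84.0% against 57.7% in the other lines, and Scrn2, a secernin, with 73.5%, 66.7% and 64.6% against 34.8%. Both lie in the higher stretch, with levels above all 9 other libraries and differences of 1.33 and 1.06. Shares over 10 points below the prediction were found in 67 members. Of these, 25 lay in the stretch without maternal RNA and 2 between Ncor1 and the gain. A further 40 lay at the distal end and 0 in the gain. The prediction is for a further maternal copy, so a gene with balanced alleles falls below it. By the same measure 3064 of 4142 genes of the balanced autosomes and 139 of 175 proximal genes were below, and the 40 are no outliers. Tbc1d16, a Rab GTPase regulator of the distal end, was among the lowest in level, with 3.58, 2.63 and 2.61 in M KSR3 and 3.72 to 5.05 (median 4.10) elsewhere, a difference of -1.31 ± 0.57 and a share of 44.6% against 52.6%.

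The gained members were next read by gene lists, whose headings are broad and do not define what each listed gene does. For each list the count above all 9 other libraries stands beside the 49.2% of all gained members and the 8.52% of genes past the level given above, and since the region was chosen on this contrast the list counts are descriptions. Genes of growth factor and LIF signalling, which maintains pluripotency in mouse cells, were 18 of the members, and 14 of them lay in the gain with a median difference of 0.51. In 6 of the 14 (42.9%) the M KSR3 libraries were above all others. Stat3, the transcription factor that transmits the LIF signal, at 100885098 to 100939540, had log2 RPM of 7.30, 7.25 and 7.13 in M KSR3 and 5.39 to 6.56 (median 6.21) elsewhere, with 73.6% maternal reads against 54.9%. Prkar1a, a regulatory subunit of protein kinase A at 109649405 to 109669656, had 7.83, 7.99 and 7.98 against 6.75 to 7.24 (median 6.87), and 65.6% against 50.2%. The lowest of the 14 was Thra, a thyroid hormone receptor, at -0.59.

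Tumour suppressors and DNA repair genes gave 18 gained members with a median difference of 0.60, of which 8 (44.4%) were above all other libraries. Trp53, the gene of the p53 tumour suppressor at 69580359 to 69591873, had log2 RPM of 9.25, 9.18 and 9.23 in M KSR3 and 7.07 to 9.36 (median 9.15) in the other libraries, which overlapped. Its difference of 0.24 was 0.03 without F KSR4 replicate 2 and 0.38 without F KSR4 replicate 3. The maternal share of Trp53 was 57.3%, against 45.3% in the other lines and 62.4% predicted. Rpa1, which binds single-stranded DNA, had 8.85, 8.82 and 8.79 against 7.40 to 8.64 (median 8.15), a difference of 0.65.

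Cell cycle and mitosis genes gave 21 gained members with a median of 0.55, 11 of them (52.4%) above all other libraries. Top2a, the mitotic topoisomerase, differed by 0.44 ± 0.29 (SD, n = 3), and Kpna2, an importin, by 0.35, both with libraries that overlapped the others. Chromatin and transcription regulators gave 36 gained members with a median of 0.54, 18 of them (50.0%) above. Suz12, a subunit of Polycomb repressive complex 2, differed by 0.66, above all others, and the replacement histone gene H3f3b by 0.36. The maternal share of these 4 genes was 63.6% to 70.1%, where the other lines had 49.0% to 55.0%.

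Ribosomal proteins and translation factors gave 21 gained members with a median of 0.47, the lowest of the lists, and 8 of them (38.1%) lay above all other libraries. Eif5a and Eif4a1, both translation factors, differed by 0.47 and 0.31, and Rpl27 had a difference of -0.11. Proteasome and ubiquitin genes gave 21 gained members with a median of 0.69, 12 of them (57.1%) above, among which Psmd3, a regulatory particle subunit, differed by 0.74. Splicing factors and RNA helicases gave 16 with a median of 0.70, 11 of them (68.8%) above, among which the helicase Ddx5 differed by 0.54. Ribosomal protein genes have many processed copies that could share their reads.

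The list headed mitochondrial proteins gave 32 gained members with a median difference of 0.69, 14 of them (43.8%) above all other libraries. Among the 14 was Acly, the citrate lyase that supplies lipid synthesis, which differed by 0.60. The heading is loose, since Acly is a cytosolic enzyme and Nme2, also listed, is not confined to mitochondria. Nme2, a nucleoside diphosphate kinase, differed by 0.64 ± 0.35 (SD, n = 3) and overlapped the other libraries. The cytoskeletal, lipid and secretory genes gave 19 gained members with a median of 0.66, 10 of them (52.6%) above, and 12 further members at the distal end. Ywhae, a phosphoserine-binding adaptor, differed by 0.42, above all other libraries. The homeobox B cluster lies within the gain, and 0 of its 10 genes passed the level. The lists share the gain and do not stand for independent groups of genes.

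The region was chosen on the contrast of M KSR3 with the other lines, so the counts of calls on it are given with nothing read from them. Fitted by limma over 13609 genes, 185 of the 534 members (34.6%) passed an adjusted p of 0.05 between M KSR3 and the other lines, against 8.85% of all genes tested. Of these, 163 were higher, against 5.33% of all genes, and 22 lower, against 3.53%. The counts depended on the number of M KSR3 libraries, with 76, 36 and 42 members left when the first, the second or the third was left out.

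The comparisons that follow leave M KSR3 out. The rule used the level of the lines, which had to be above 2 in all their libraries, and the other lines were the reference against which the region was chosen, but their differences from each other, from TX 2i ESCs or from MEFs did not enter it. Between M KSR5, the other male line, and the 2 female lines, 1 of 534 members (0.187%) passed limma's adjusted p of 0.05, against 1.36% of all 13609 genes and 0.367% in its direction. At an unadjusted p under 0.05 there were 44 members (8.24%), against 12.6% of all genes. The called gene was Etv4, with log2 RPM of 7.30, 7.56 and 7.14 in M KSR5 and 5.35 to 6.69 (median 6.20) in F KSR2 and F KSR4, a difference of 1.24 (SE 0.26, adjusted p = 0.0311). The call was lost in 6 of 14 alternative settings, with adjusted p from 0.00500 to 0.223, among them those without F KSR2 replicate 2 or 3 or any M KSR5 replicate. The median difference was 0.13 over the members and 0.10 over all genes.

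Against TX 2i ESCs, 73 of the 534 members (13.7%) passed limma's adjusted p of 0.05 in F KSR2, F KSR4 and M KSR5, against 20.8% of 14632 genes and 18.4% of the genes past the level. Of the members, 37 (6.93%) were higher in the KSR-iPSC lines, against 9.52% of all genes and 7.24% of those past the level, and 36 (6.74%) were lower, against 11.2% and 11.1%. The median difference was -0.01 over the members and -0.02 over all genes. Without TX 2i ESC replicate 1 the count was 46, and without replicate 3 it was 43.

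Among called members whose libraries did not overlap, the largest differences from TX 2i ESCs were in Etv4 and Car4. Etv4 had log2 RPM of 0.84, -0.77 and 0.78 in TX 2i ESCs, which correspond to 11 to 32 reads, and 691 to 3365 reads in the lines, a difference of 6.22 that was 5.33 with 1 added to each RPM. Car4, a membrane carbonic anhydrase, had 3 to 9 reads in the TX 2i libraries and 126 to 459 in the lines, a difference of 5.26 that was 3.34 with 1 added to each RPM. Both were under the level in TX 2i ESCs, and since a member had to pass it in the lines, a higher level in the lines was fixed by the rule and is no result. In the other direction, Calcoco2, an autophagy receptor, had 8.16, 7.28 and 8.91 in TX 2i ESCs and 3.52 to 6.86 (median 5.13) in the lines, a difference of -2.87 (SE 0.46, adjusted p = 3.19e-04 by limma). Map2k6, a stress kinase, had 4.83, 4.79 and 4.51 against 2.50 to 3.77 (median 3.0), a difference of -1.69 (SE 0.22, adjusted p = 4.25e-05). In all 4 genes the TX 2i libraries lay apart from the 9 libraries of the lines.

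Against female MEFs, 370 of the 534 members (69.3%) passed limma's adjusted p of 0.05 in the same 3 lines, against 73.2% of 14632 genes and 71.8% of those past the level. In the lines 251 members (47.0%) were higher, against 40.6% of all genes and 45.7% of those past the level, and 119 (22.3%) were lower, against 32.6% and 26.0%. Since members had to be expressed in the KSR-iPSC lines, the genes past the level are the nearer background, and the median difference of the members, 0.38, was close to their 0.34. Among the gained members 221 were higher and 95 lower of 437. Of the 25 members that lacked maternal RNA in M KSR3, 10 were higher and 4 lower.

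Fkbp10, a chaperone of collagen, was lower in the lines than in MEFs by -5.42 (SE 0.28, adjusted p = 1.43e-11 by limma), and Ptrf, a coat protein of caveolae, by -4.66 (SE 0.63, adjusted p = 3.81e-06). Tex19.1, a gene of germ cells and pluripotent cells, had 0 to 1 reads in the MEF libraries and 861 to 2558 in the lines. Calcoco2 had 0 to 1 reads in MEFs and 214 to 1719 in the lines. Members had to pass the level in the lines, so that this direction was fixed by the rule and is no result. Both are at or under the floor of 3 counts in MEFs, and a fold would depend on the value given to 0 reads.

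By list, 17 of the 23 ribosomal and translation members were higher in the lines than in MEFs and 0 lower, and 14 of 20 splicing members were higher and 0 lower. Tumour suppressor and repair members were higher in 16 and lower in 2 of 22, cell cycle members in 14 and 4 of 25, chromatin regulators in 24 and 4 of 40, proteasome members in 17 and 3 of 26 and mitochondrial members in 19 and 2 of 39. Growth factor and LIF signalling members were higher in 5 and lower in 8 of 18, and cytoskeletal and secretory members in 7 and 14 of 32. Of the 10 Hoxb genes, none of which was a member, 8 were lower in the lines than in MEFs and 2 higher. The 45.7% higher and 26.0% lower among genes past the level are the background to the counts of members, which are descriptions of the lists. For the Hoxb genes, which are not past it, the background is the 40.6% and 32.6% of all genes.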

How the data were processed

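RNA-seq libraries of 6 groups with 3 replicates each were analysed, grouped by their labels. Per the study's methods, the authors trimmed reads with Trim Galore 0.6.1, aligned them to GRCm38 with HISAT2 2.1.0, assigned reads to the C57BL/6J or CAST genome by SNPs and counted them per gene on the sense strand in SeqMonk. The deposited table holds log2 RPM per gene and library for all, maternal, paternal and unassigned reads. The study's text names the values log2 RPKM, but they stepped by whole reads whatever the gene's length, so they were treated as RPM. The stepped log2 values gave back whole reads for 99.97% to 100% of values in each library (within 0.05 read), and 0 reads were entered as 0.9 read. Libraries held 13183036 to 17921280 reads, which sets the precision of a share of reads.

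The members and gene lists were chosen with earlier results of these data known. Genes were identified by symbol. Differences of M KSR3 were taken from the mean of the other line means, relative to the balanced autosomes 2, 3, 5, 7, 9, 10, 13, 14, 17, 18 and 19, and are descriptions. The maternal share used genes with at least 20 allelic reads in each of the 12 KSR-iPSC libraries. With s as the share in the other lines, 1 further maternal copy predicts 2s/(1+s). Segments of at least 3 genes were found by dynamic programming on the log2 odds of the share. Tests used limma 3.58.1 in R 4.3.3 with trend on the deposited log2 values, on genes above 0 in at least 3 of the libraries fitted, with a mean per group, no covariate and Benjamini-Hochberg adjustment over all genes tested. Comparisons among KSR-iPSC lines were fitted on 12 libraries and those with TX 2i ESCs or MEFs on 18. The fits and the segment search were tested on simulated data. No 2 replicates of a group agreed within sampling noise. Python 3.11.15 with numpy 2.4.6, pandas 2.3.3, scipy 1.17.1 and matplotlib 3.10.9 did the rest.

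The named genes are the 8 members farthest above and below the dosage, the 2 with the highest level of each list, the 3 on each side of the boundary and of each threshold, up to 4 whose share lay over 10 points from the prediction in each direction, and from each test, among called members whose libraries did not overlap, the 2 that differed most each way. Values of 1 such gene are left out of the text, though sums include it. Genes beyond these, and the blocks of the higher stretch, were chosen after their values were seen. Promoters are from RefSeq, where 2 windows were listed for Ncor1 and the one nearest the table's gene end was taken. Alternatives were another reference or none, 1 added to each RPM, other level and read minimums, no filter, limma-voom with TMM scaling on the recovered reads, centred libraries, a replicate block and leaving out each library. The methylation libraries of the series were not used here.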

Additional observations from a re-analysis of the deposited data

How the results depend on the processing

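No result changed direction under any alternative. The median difference of the members (0.53) was 0.57 with no reference, 0.47 with all autosomes as reference, 0.52 with 1 added to each RPM, 0.51 for genes past a level of 0 and 0.51 to 0.54 when a library was left out. For the gained members (0.63) it was 0.68 with no reference and 0.61 to 0.63 when a library was left out, and for those without maternal RNA -1.05 to -0.96. The maternal share (64.7%) was 62.6% as the mean of gene shares and 64.6% to 64.7% without a library. The boundary in level fell at 62753377 for genes past a level of 0, at 63962627 for genes past a level of 4 and at 62879455 without any of the M KSR3 libraries in turn. The alternatives for the stretches were chosen after seeing the data: the stretch without maternal RNA began at 60454591 with at least 50 allelic reads, and the distal end at 116803062 to 116837432 without a library.

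When a library was left out, the members called were 36 to 268 between M KSR3 and the other lines, 0 to 6 for M KSR5 against the female lines, 43 to 107 against TX 2i ESCs and 346 to 398 against MEFs, those above the dosage 18 to 27 and those below it 60 to 82. For M KSR5 the limma count was 6 without F KSR4 replicate 1 or 3 and 0 without a filter on low values, where limma-voom gave 1. For these counts the other settings, limma-voom included, stayed within 1.5 times. Replicate numbers are shared across groups, but same-numbered libraries correlated by -0.31 to 0.57 (median 0.08, 45 pairs) and others by -0.51 to 0.41 (median -0.05, 90 pairs) over the 6 groups. Same-numbered pairs of a female line and TX 2i ESCs all passed 0.1 (0.21 to 0.51, 6 pairs), those of M KSR5 and TX 2i ESCs did not (-0.22 to 0.06, 3 pairs), and 5 of 9 with MEFs did. Not every pair of a comparison passed, so the fits without the block stand as the main values. With a replicate block the calls were 189 for M KSR3, 1 for M KSR5, 83 against TX 2i ESCs and 382 against MEFs. Depth limits the share of genes with few allelic reads, which 76 members had, and the side of Mxra7.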
